A study of Mus musculus with 8 samples.

Results

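The genes described here are 36 members of the endoplasmic reticulum (ER) folding machinery and of the unfolded protein response, chosen by gene symbol out of 22244 genes in a table of read counts from mouse lung. All 36 symbols had a row in the table, and 35 had enough counts to be tested. The animals were adult male C57BL/6J mice, an inbred laboratory strain. 4 mice were controls that the labels give as untreated, and 4 had been injected with naphthalene. Each library was made from total RNA of the right cranial lobe of 1 mouse. Naphthalene is an aromatic hydrocarbon that airway club cells convert to toxic products, and injected mice serve as a model for damage to the airway lining. Not given in the sources used here were the dose, the vehicle and the interval from injection to sampling, so effects of the injection or vehicle cannot be told apart from those of naphthalene. Whole lobes were used, and in such bulk samples fewer cells of a type and less RNA per cell cannot be told apart.

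Proteins that enter the secretory pathway fold inside the ER with the help of chaperones, lectins and disulfide isomerases. When unfolded protein accumulates there, the transmembrane sensors ATF6, IRE1 (gene Ern1) and PERK (gene Eif2ak3) start the unfolded protein response, which raises chaperones, factors of ER-associated degradation (ERAD) and parts of the translocation channel. In the lung the alveolar type 2 cell and the airway secretory cell carry a large secretory load. Splicing of Xbp1 mRNA, cleavage of ATF6 and phosphorylation of PERK are the direct readouts of the sensors, and gene counts measure none of them.

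Levels are CPM, each library's counts brought to a common total after TMM scaling, and a gene was called higher or lower where edgeR's quasi-likelihood test gave a Benjamini-Hochberg adjusted p under 0.05 over all 14192 tested genes. Total counts ranged from 10743842 to 16792306 per library. The lung markers were present, with the alveolar type 2 gene Sftpc at 6452 ± 778 CPM and the alveolar type 1 gene Ager at 1472 ± 109.8 CPM in controls (mean ± SD, n = 4). The club cell genes Scgb1a1 and Cyp2f2, which mark the cells that naphthalene injures, fell by 1.85 and 2.62 on the log2 scale. The count table lists nearly the whole of chromosome 1 at 0. Of 1150 protein-coding genes that RefSeq (GRCm38.p6) places on chromosome 1, 1138 (99%) had 0 counts in all 8 libraries, against 902 of 17853 (5.05%) on the other autosomes. Atf6, which encodes one of the sensors, lies on chromosome 1 and is listed at 0 in all 8 libraries, so nothing is read from its row.

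After naphthalene 15 of the 35 tested members were higher and 1 was lower. Over all tested genes 14.1% were called higher and 14.6% lower, 28.7% in either direction. The median log2 fold change of the members was 0.24, against 0.01 over all tested genes, and 32 of 35 members had a value above 0. The members that rose did so by 1.18-fold to 2.16-fold. The steepest were Dnajb9, Hspa5 and Manf, and the only 1 that fell was the oxidase gene Ero1b. The values of the naphthalene mice lay wholly above those of the controls for 14 members and wholly below for 1, against 13.9% and 14.7% of all tested genes. The 19 members that were not called had log2 fold changes between -0.09 and 0.43. Together the members made up 0.519% to 0.61% of scaled counts in controls and 0.663% to 0.749% after naphthalene, with no overlap between the groups.

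**Figure D1:**
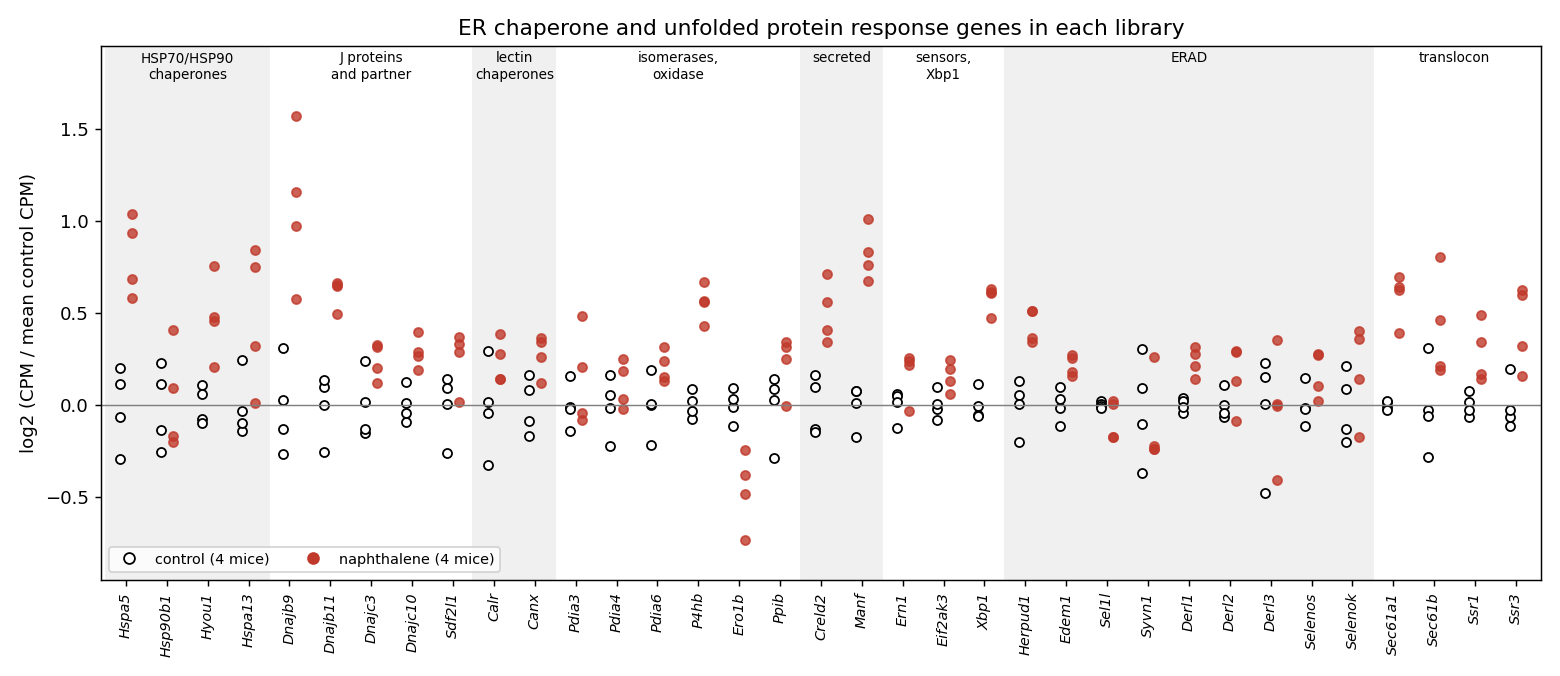
Level of each tested member in each library, as the log2 ratio of its CPM to the mean of the 4 controls (vertical axis), by gene and role (horizontal axis). Open circles are the 4 control mice and filled circles the 4 naphthalene mice. The naphthalene points stand apart above the controls for 14 genes, and for Ero1b they stand apart below.

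Promoters of many of these genes are known to carry the ER stress response element (ERSE), where ATF6 and XBP1 act together with the factor NF-Y. The 300 bases from 250 before to 50 after each annotated start (RefSeq, GRCm38.p6) were searched on both strands for exact matches to 4 motifs. These were the ERSE, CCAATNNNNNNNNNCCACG, the variant ERSE-II, which is ATTGG, any base and CCACG in a row, the XBP1 element UPRE, TGACGTGG, and the ATF4 element CARE, TGATGNAAT. The reversed UPRE begins with the same CCACG that ends the ERSE, so these motifs can overlap. A promoter entry was found for 30 members, and Hyou1, Hspa13, Manf, Atf6, Derl1 and Sec61a1 had none. The ERSE was present in 10 of the 30 members and the ERSE-II in 2, against 0.173% and 0.0911% of 10982 tested genes with an entry. Over all 32851 promoters in the table the shares were 0.119% and 0.0365%. The UPRE and the CARE were present in 0 of the 30 members, against 0.993% and 0.628% of tested genes and 0.676% and 0.965% of all promoters. Stretches with 20 bases on either side are shown for 3 members that were higher (Hspa5, Creld2 and Herpud1), 3 that were not called (Hsp90b1, Canx and Pdia6) and the 1 that was lower (Ero1b). Capitals mark the fixed letters of each match, on either strand, and every stretch is written along the strand of its gene.
Hspa5 (chr2:34772005-34772063, plus strand): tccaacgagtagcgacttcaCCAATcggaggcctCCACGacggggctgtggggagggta
Creld2 (chr15:88819500-88819558, plus strand): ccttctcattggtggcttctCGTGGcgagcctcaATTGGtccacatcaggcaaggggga
Herpud1 (chr8:94386357-94386407, plus strand): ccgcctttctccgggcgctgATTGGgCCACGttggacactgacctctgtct
Hsp90b1 (chr10:86705513-86705676, minus strand): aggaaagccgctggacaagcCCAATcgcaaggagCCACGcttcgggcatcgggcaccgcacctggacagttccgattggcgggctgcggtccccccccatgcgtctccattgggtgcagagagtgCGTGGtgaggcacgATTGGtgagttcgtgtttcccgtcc
Canx (chr11:50325780-50325838, minus strand): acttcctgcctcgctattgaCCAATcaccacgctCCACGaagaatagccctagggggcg
Pdia6 (chr12:17266471-17266529, plus strand): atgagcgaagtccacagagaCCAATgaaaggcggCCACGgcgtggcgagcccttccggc
Ero1b (chr13:12565662-12565720, plus strand): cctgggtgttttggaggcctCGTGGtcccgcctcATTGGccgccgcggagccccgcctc
Genes with the same exact element were called higher, lower or not at all. Among the 12 members with an ERSE or ERSE-II, 4 were higher and 1 was lower. Among the 18 with an entry and no match, 6 were higher and 0 were lower, so the share called higher was 33.3% in both. Hyou1, Hspa13, Manf, Derl1 and Sec61a1, which had no entry, were all called higher and are in neither share. The comparison therefore does not cover all members that rose. Over all tested genes with an entry, 35 of 137 with an ERSE, ERSE-II or UPRE were higher (25.5%), against 1534 of 10845 without (14.1%). The element in the Hspa5 promoter ended 46 bases before the start. Hsp90b1 held 2 matches, which ended 193 and 88 bases before its start, and it was not called. A match describes letters only, and no binding was measured here.

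Among the HSP70 and HSP90 chaperones 3 of 4 rose, against 14.1% of all tested genes called higher. Hspa5 encodes BiP, the main ER HSP70, which also holds the stress sensors inactive. Its level was 213, 283, 300.2 and 249.7 CPM in controls 1 to 4 and 391, 421, 537 and 499 CPM in naphthalene mice 1 to 4. Every naphthalene mouse was above every control, and the log2 fold change was 0.82 (SE 0.15, adjusted p = 0.0013). Hyou1, which encodes the large ER HSP70 relative that exchanges nucleotide on BiP, stood at 124, 141, 122 and 136 CPM in controls and 221, 182, 179 and 151 CPM after naphthalene. It was higher by 0.49 (SE 0.12, adjusted p = 0.00956), without overlap, and naphthalene 4 lay closest to the controls. Hspa13, a small microsomal HSP70, was higher by 0.52 (SE 0.21, adjusted p = 0.0426). Its naphthalene values of 78.5, 97.3, 131 and 139.9 CPM overlapped the controls (70.7, 72.7, 92.4 and 76.1 CPM), with naphthalene 1 inside the control range. The Hspa13 call ended when any 1 of control 1, 2 and 4 and naphthalene 2, 3 and 4 was left out (adjusted p 0.0515 to 0.119), with upper quartile scaling (0.054) and in limma voom (0.0532).

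Hsp90b1 encodes GRP94, the ER HSP90, and it is classically raised together with BiP. It was at 578, 747, 809.6 and 629 CPM in controls and 601, 614, 737 and 916 CPM after naphthalene. The groups overlapped over most of their range, and the log2 fold change was 0.053 (SE 0.18, adjusted p = 0.827). The ratio of Hspa5 to Hsp90b1 CPM within each library was 0.369, 0.379, 0.371 and 0.397 in controls and 0.65, 0.686, 0.728 and 0.545 after naphthalene. That ratio did not overlap between the groups and was nearly the same in the 4 controls. This pair was chosen after its values were seen, so the ratio is a description with no test.

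**Figure D2:**
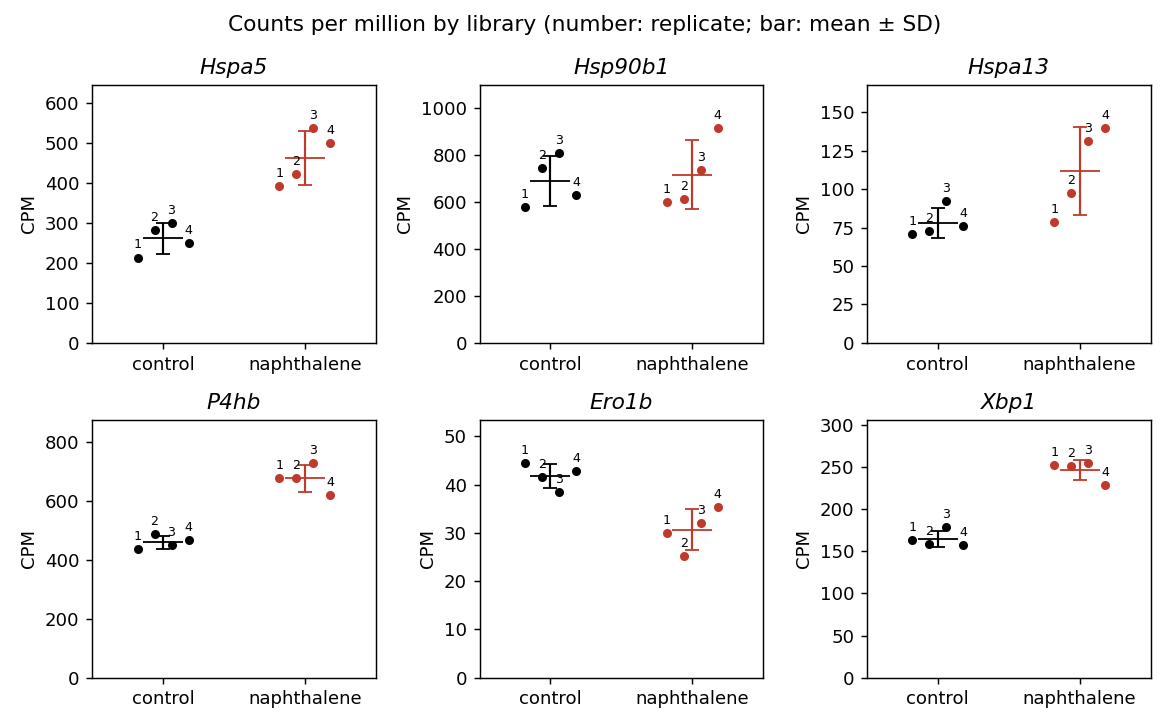
CPM by library for 6 members (vertical axis, from 0) in controls and naphthalene mice (horizontal axis), with the mean and SD of 4 mice as bars and the replicate number beside each point. Hspa5, P4hb and Xbp1 lie apart above the controls, Ero1b lies apart below, and Hsp90b1 and Hspa13 overlap.

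J proteins deliver unfolded chains to BiP and start its ATP cycle. Of the 4 among the members 3 rose, against 14.1% of all tested genes called higher. Dnajb9 (ERdj4), which recruits BiP to IRE1, had the largest fold change of the members. It was at 45, 36.6, 54.6 and 40.3 CPM in controls and 65.7, 86.5, 98.2 and 131 CPM in naphthalene mice, with no overlap. The log2 fold change was 1.11 (SE 0.24, adjusted p = 0.00179), and the naphthalene mice spread from 65.7 to 130.9 CPM. Dnajb11 (ERdj3), a J protein that binds nascent chains, rose from 50.4, 64.4, 66.2 and 60.1 CPM to 94.1, 94.6, 95.2 and 84.8 CPM, by 0.61 on the log2 scale (SE 0.097, adjusted p = 0.00125). Its naphthalene values lay close together, apart from a lower naphthalene 4. Dnajc10 (ERdj5), a J protein with disulfide reductase activity, rose by 0.29 (SE 0.063, adjusted p = 0.0288). Leaving out any of controls 1, 2 and 4 or naphthalene 2 and 3 ended the Dnajc10 call (adjusted p 0.0728 to 0.0963), as did dropping the filter on low counts (0.0508).

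Dnajc3 (p58IPK), a J protein also known as an inhibitor of PERK, was not called. It stood at 349 ± 45.1 CPM in controls and 412 ± 27.9 CPM after naphthalene (log2 fold change 0.24, SE 0.103, adjusted p = 0.12). Control 3 was the highest control at 411 CPM, and without it Dnajc3 passed (adjusted p = 0.0348). Sdf2l1, the partner of ERdj3 in a chaperone complex, was low at 9.56 ± 1.13 and 11.4 ± 1.21 CPM and was not called (adjusted p = 0.195).

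The lectin chaperones hold glycoproteins while they fold, and 0 of 2 passed in edgeR, against 28.7% of all tested genes. Canx had an unadjusted p under 0.05 and passed in DESeq2, and in limma voom 0 passed. Calr, the soluble calreticulin, was at 186, 286, 227 and 236 CPM in controls and 304, 283, 257 and 257 CPM after naphthalene, with control 2 above 3 of the 4 naphthalene mice. Canx, the membrane-bound calnexin, was at 472, 561, 594 and 499 CPM in controls and 578, 636, 684 and 674 CPM after naphthalene. Naphthalene 1 alone fell inside the control range for Canx. The Canx log2 fold change was 0.27 (SE 0.094, adjusted p = 0.0743), and it passed without control 3 (adjusted p = 0.0471), without naphthalene 1 (0.0348) and in DESeq2 (adjusted p = 0.035).

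Disulfide and prolyl isomerases split, with 1 of 6 higher, 1 lower and 4 not called. The shares over all tested genes were 14.1% higher and 14.6% lower. P4hb, the classical protein disulfide isomerase and also a subunit of collagen prolyl hydroxylase, was at 436, 487, 449 and 467 CPM in controls. After naphthalene it was at 678, 679, 730.3 and 619 CPM, and the groups were far apart compared with their spread. The log2 fold change was 0.56 (SE 0.060, adjusted p = 0.00126). Ero1b, the oxidase that passes disulfides to PDI, went the other way, from 44.6, 41.6, 38.6 and 42.8 CPM to 29.9, 25.2, 32.1 and 35.3 CPM without overlap. It fell by 0.45 on the log2 scale (SE 0.11, adjusted p = 0.013). Its widely expressed relative Ero1a stood at 73.1 ± 4.84 CPM in controls and 86.4 ± 6.78 CPM after naphthalene and was not called (log2 fold change 0.24, adjusted p = 0.0662).

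The other 4 isomerases were not called. Pdia3 (ERp57), which works with the lectins, was at 294 ± 25.3 and 328 ± 61.3 CPM (adjusted p = 0.398), and naphthalene 4 was its highest library at 410.2 CPM. Pdia4 (ERp72) was at 113 ± 12.6 and 123 ± 10.8 CPM (log2 fold change 0.11, SE 0.104). Pdia6, which attenuates IRE1 signalling, was at 181 ± 20.8 and 209 ± 12.3 CPM (log2 fold change 0.21, SE 0.094). Ppib, cyclophilin B, a prolyl isomerase of collagen folding, was at 55.7 ± 7.04 and 65.3 ± 6.82 CPM (adjusted p = 0.166).

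Both secreted stress proteins rose, where 14.1% of all tested genes were called higher. Manf, a BiP-binding protein that cells release under ER stress, had the smallest p of the members. Its level was 36.6, 43.5, 43.4 and 41.5 CPM in controls and 65.7, 69.7, 82.9 and 73.3 CPM after naphthalene, with a wide gap between the groups. The log2 fold change was 0.82 (SE 0.092, adjusted p = 0.00024), and it stayed between 0.753 and 0.892 in all 18 alternative analyses. Creld2, another stress-induced ER protein with isomerase activity, rose from 22.8, 27.9, 22.5 and 26.7 CPM to 40.8, 33.1, 31.6 and 36.7 CPM (log2 fold change 0.51, SE 0.11, adjusted p = 0.00855). Their relatives Cdnf and Creld1 had log2 fold changes of -0.060 and -0.073 and were not called. Cdnf was low, at 2.19 ± 0.748 CPM in controls and 2.13 ± 0.467 CPM after naphthalene (SE of the log2 fold change 0.26).

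Of the sensor genes and Xbp1, Xbp1 was the 1 member called among 3 tested, against 28.7% of all tested genes. Xbp1 encodes the transcription factor whose mRNA IRE1 splices, and the counts do not separate the spliced form. It was at 164, 159, 179 and 158 CPM in controls and 252, 251, 255 and 229 CPM after naphthalene, higher in every naphthalene mouse. The log2 fold change was 0.58 (SE 0.054, adjusted p = 0.000561). Ern1 was at 92.7, 81.7, 92 and 89.9 CPM and 106, 105, 103 and 87 CPM, and only naphthalene 4 overlapped the controls. Ern1 was not called (log2 fold change 0.17, SE 0.080, adjusted p = 0.181), and it passed without naphthalene 4 (adjusted p = 0.0456). Eif2ak3 was at 56.6 ± 2.97 and 63.2 ± 3.45 CPM (log2 fold change 0.16, SE 0.054, adjusted p = 0.185). Ern2, the IRE1 form of mucous epithelium, was too low to test, with 9 to 15 counts in each control library and 1 to 3 after naphthalene.

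ERAD returns misfolded proteins to the cytosol for destruction. In that group 2 of 9 members were called higher, against 14.1% of all tested genes. Herpud1, an ERAD scaffold that is strongly induced by ER stress, was at 135, 113, 130.5 and 142 CPM in controls and 165, 185, 167 and 185 CPM after naphthalene, without overlap. Its log2 fold change was 0.43 (SE 0.084, adjusted p = 0.00585). Derl1, a derlin of the retrotranslocation channel, rose by 0.24 (SE 0.042, adjusted p = 0.0403) from 118, 125, 124 and 121 to 147, 141, 152 and 135 CPM. The Derl1 groups did not overlap, but the call was lost without any 1 library other than naphthalene 4 (adjusted p 0.0524 to 0.114) and with the replicate number as a block (0.0631), upper quartile scaling (0.063) or no filter on low counts (0.0913). The number of ERAD members called higher was then 1.

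The core of the SEL1L-HRD1 ubiquitin ligase was not called. Sel1l, its adaptor, was at 236, 233, 232 and 229.5 CPM in controls and 233, 236, 206 and 206 CPM after naphthalene (log2 fold change -0.078, SE 0.055). The 4 control values of Sel1l were nearly equal. Syvn1, the ligase HRD1, was at 44.6, 33.6, 27.9 and 38.5 CPM and 43.3, 30.7, 30.6 and 30.9 CPM, with wide overlap and naphthalene 1 above the other naphthalene mice. Edem1, a mannosidase-like factor that targets glycoproteins to ERAD, had no overlap between 141, 131, 152 and 145 CPM and 161, 158, 169.7 and 172 CPM but did not pass (log2 fold change 0.21, SE 0.054, adjusted p = 0.0693). In DESeq2 Edem1 passed (adjusted p = 0.0344). Derl2, Selenos and Selenok, all of the same retrotranslocation machinery, had log2 fold changes of 0.16, 0.17 and 0.197 and were not called. Derl3, the derlin of highly secretory cells, was near the bottom of the range at 2.1 ± 0.424 and 2.11 ± 0.448 CPM (log2 fold change 0.031, SE 0.21).

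In the translocation channel 3 of 4 members rose, against 14.1% of all tested genes called higher. Sec61a1, the pore subunit, had nearly equal control values of 160.2, 157, 155 and 161 CPM and stood at 247, 244, 256 and 207 CPM after naphthalene. It was higher by 0.59 (SE 0.069, adjusted p = 0.000711), whereas its paralog Sec61a2 was at 54.8 ± 1.58 and 53.5 ± 4.76 CPM (log2 fold change -0.035, adjusted p = 0.801). Sec61b, the small beta subunit, was at 28.9, 34.5, 43.6 and 33.7 CPM and 40.7, 40.05, 48.4 and 61.3 CPM and overlapped (log2 fold change 0.43, SE 0.19, adjusted p = 0.0648). Sec61b passed without control 3 (adjusted p = 0.0288) or naphthalene 1 (0.0323), and in DESeq2 (0.0437).

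Ssr3 and Ssr1, subunits of the translocon-associated protein complex, rose by 0.44 (SE 0.13, adjusted p = 0.0223) and 0.29 (SE 0.087, adjusted p = 0.0438). Ssr3 was at 296, 306, 366 and 313 CPM in controls and 356, 399, 484 and 493 CPM after naphthalene, and control 3 overlapped naphthalene 1. Ssr1 was at 197, 185, 205 and 191 CPM and 214, 218, 247 and 273 CPM without overlap. For Ssr3 the call ended when control 1, control 2, control 4 or naphthalene 3 was left out (adjusted p 0.0616 to 0.0717). For Ssr1 it ended without any 1 library other than naphthalene 1 (adjusted p 0.0521 to 0.122), with upper quartile scaling (0.0657) and with no filter (0.0598). With control 1, 2 or 4 or naphthalene 3 left out, 1 translocon member was called.

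**Figure D3:**
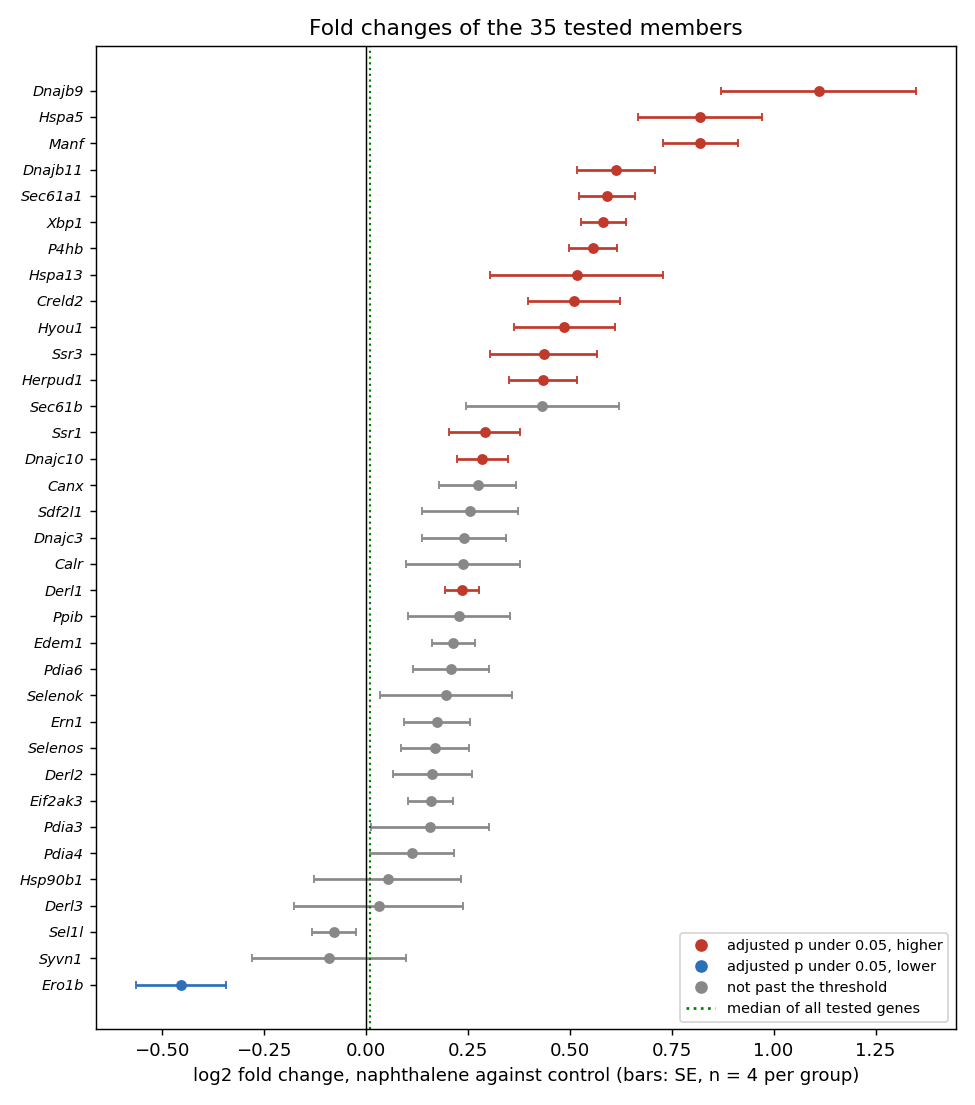
Log2 fold change of naphthalene against control (horizontal axis) for the 35 tested members, ordered by size (vertical axis), with SE bars (n = 4 per group) and colour for the call. The dotted line is the median of all tested genes at 0.01, and Dnajb9 at 1.11 and Ero1b at -0.45 are the ends of the range.

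Levels can be set against each other only per length, and for this CPM were divided by the exon length in kilobases (GENCODE M21). On that scale Hsp90b1 (171 ± 26.4 CPM per kb), P4hb (161 ± 7.73) and Canx (113 ± 11.9) were the most abundant members in controls, and Hsp90b1 and P4hb differed by less than their spread. After naphthalene P4hb ranked first at 237 ± 15.9 CPM per kb, ahead of Hsp90b1 at 178 ± 36.2. Hspa5 moved from rank 8 (61.8 ± 9.09 CPM per kb) to rank 4 (109 ± 16.0). Ero1b (6.29 ± 0.378 CPM per kb) and Derl3 (1.05 ± 0.213) were the least abundant tested members in controls. These lengths come from the annotation and not from the transcripts in use here.

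The naphthalene mice differed among themselves, and not in the same way for every member. In 18 of 35 members (51.4%) naphthalene 3 and 4 both lay above naphthalene 1 and 2, against 27.9% of all tested genes, and Hsp90b1, Hspa13, Dnajb9, Pdia3, Ssr1 and Ssr3 were among them. In 5 members, Hyou1, Calr, Ern1, Eif2ak3 and Sel1l, naphthalene 3 and 4 both lay below the others (14.3%), against 28.1% of all tested genes. Among controls, control 3 was the highest library for 19 of the 35 members (54.3%, against 33.5% of all tested genes) and control 1 the lowest for 19 (54.3%, against 25.7%). These patterns were chosen after the values were seen and are given with no test. Total counts were 16792306 and 15454146 in naphthalene 1 and 2, and 11798360 and 11233709 in naphthalene 3 and 4. The part of library size in these patterns was not tested.

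Markers of several cell types differed between the groups or among the libraries. Over all tested genes 14.1% were called higher and 14.6% lower. In the neutrophil, alveolar macrophage and endothelial lists 1 marker was called, a count near these shares. The summed level of 7 alveolar type 2 markers was 16518 to 21027 CPM in controls and 16818 to 22800 CPM after naphthalene. It too was higher in naphthalene 3 and 4 than in naphthalene 1 and 2. Most of that sum was Sftpc, Lyz2 and Sftpa1, and other markers of the list went the other way among the naphthalene mice. Sftpb was at 2426, 2398, 2311 and 2109 CPM and Abca3 at 843, 765, 620.1 and 549 CPM in naphthalene 1 to 4. Of these 7 markers 2 were higher than in controls (Sftpb and Napsa). The summed level of 6 neutrophil markers was 68.6 to 396 CPM in controls, where control 3 was the highest, and 216 to 496 CPM after naphthalene, with 1 of 5 tested higher. For 6 alveolar macrophage markers it was 412 to 810.3 CPM and 471 to 1297 CPM, with 1 of 5 higher (Fabp4). Most of the macrophage sum was Chil3 and Mrc1, while Siglecf and Ear2 had log2 fold changes of -0.66 and -0.25 and were not called. For 6 alveolar type 1 markers it was 3939 to 5215 CPM and 5074 to 6185 CPM, with 3 of 6 higher. For 6 endothelial markers it was 2228 to 2619.8 CPM and 1212 to 2712 CPM, with 1 of 6 lower. In naphthalene 1 to 4 this endothelial sum was 2712, 2010, 1500 and 1212 CPM, with naphthalene 1 above every control.

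Markers of the airway lining and of lymphocytes were lower. All 8 club and airway secretory markers fell, from a summed 5347 to 10955 CPM to 1072 to 2735 CPM, and 5 of 6 tested ciliated markers fell, from 444 to 707 CPM to 79.6 to 161 CPM. Of 5 tested plasma cell markers 4 fell, among them Jchain (37.6 ± 4.21 to 16.1 ± 3.66 CPM) and Mzb1, which encodes an ER chaperone partner of those cells, while Sdc1, which epithelium also expresses, rose. The summed level of all 7 plasma cell markers, most of it Sdc1, was 317 to 354.5 CPM and 348 to 401 CPM. All 6 T and B cell markers fell, from 71.8 to 101.4 CPM to 21.7 to 37.9 CPM. The 6 fibroblast markers gave 2911 to 2981 CPM and 2437 to 2903 CPM, with 0 of 5 tested called by edgeR and 1, Pdgfra, at an unadjusted p under 0.05. Cfap126, Marco, Cxcr2 and Col3a1, all among these markers, were listed at 0 in all 8 libraries. As for Atf6, nothing is read from their rows, and the sums of their lists hold no counts from them. The part of these cell types in the changes of the members was not tested.

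Other genes of the pathway were read from 6 lists that hold none of the members. The shares over all tested genes were 14.1% higher and 14.6% lower, with a median log2 fold change of 0.01. Of 12 genes listed as outputs or feedback of the PERK arm, 10 were tested, 7 were higher and 1 was lower (median log2 fold change 0.66). PERK activity was not measured, and its part in these changes was not tested. Those called higher included Atf4, the transcription factor of the PERK arm (133 ± 4.79 to 223 ± 32.3 CPM, log2 fold change 0.75, SE 0.11), Ddit3, which encodes the pro-apoptotic factor CHOP (15.2 ± 1.22 to 25.3 ± 2.45 CPM), and Sesn2, an inhibitor of mTORC1 (12.4 ± 2.08 to 23.4 ± 3.97 CPM). Nupr1, a stress-associated chromatin protein, was the 1 that fell, by 0.47 on the log2 scale (SE 0.077, adjusted p = 0.00377).

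Of 13 tested genes for sensor processing and other ER-anchored factors, 2 were higher and 0 lower, with a median of 0.01. The share called higher was close to the 14.1% over all tested genes. The 2 genes were Eif2s1, the substrate of PERK (log2 fold change 0.65, SE 0.21), and Creb3, an ER-anchored transcription factor (0.46, SE 0.14). Without control 1 or 4 Creb3 did not pass (adjusted p 0.0595 and 0.0601). Of 34 other tested ER folding factors 5 were higher and 1 was lower, a share called higher close to that over all genes, with a median of 0.10. The prolyl isomerase gene Fkbp14 rose from 20.5 ± 0.553 to 41.1 ± 8.1 CPM (log2 fold change 1.005, SE 0.14), Erp29 rose by 0.45 and the thioredoxin-domain gene Txndc11 by 0.42. Txndc11 did not pass without naphthalene 2 (adjusted p = 0.0508), and without control 1 only 3 genes of the list were higher. Tmx4, a transmembrane thioredoxin, fell by 0.28 (SE 0.060), and that call ended in 6 of the 8 fits with 1 library left out (adjusted p 0.0558 to 0.0975).

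Genes that act before and after folding were called higher more often than lower. Over all tested genes 14.1% were called higher and 14.6% lower, with a median log2 fold change of 0.01. Of 22 other tested ERAD factors 8 were higher and 0 lower (median 0.165), led by Vcp, the segregase that pulls substrates out of the membrane (267 ± 7.44 to 383 ± 54.7 CPM, log2 fold change 0.52, SE 0.11), the prohibitin-family gene Erlin1 (0.55) and the ubiquitin-conjugating enzyme gene Ube2g2 (0.53). Of 27 tested genes of translocation, signal peptidase and N-glycosylation 10 were higher and 0 lower (median 0.25). Stt3b, a catalytic subunit of oligosaccharyltransferase, rose from 244 ± 18.4 to 443 ± 53.3 CPM (log2 fold change 0.86, SE 0.103), Ssr2, the partner of Ssr1 and Ssr3, by 0.72 and the signal recognition particle receptor gene Srprb by 0.53. Of 28 genes of COPII vesicles and ER to Golgi transport 13 were higher and 0 lower (median 0.27), led by Mcfd2, a cargo receptor subunit (97.5 ± 5.5 to 151 ± 8.52 CPM), the coat gene Sec23b (log2 fold change 0.74, SE 0.095) and the cargo receptor gene Surf4 (0.57). Leaving out control 1 or control 4 brought the translocation count to 4 and 6. Leaving out control 2, control 4, naphthalene 2 or naphthalene 3 brought the ERAD count to 4 or 5. At an unadjusted p under 0.05, 1 gene of these 3 lists was lower, Ergic3 of the transport list. In these 6 lists 9 genes were listed at 0 in all libraries, among them Atf3, Ppp1r15b, Uggt1, Edem3 and Tram1, and all 9 lie on chromosome 1.

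**Figure D4:**
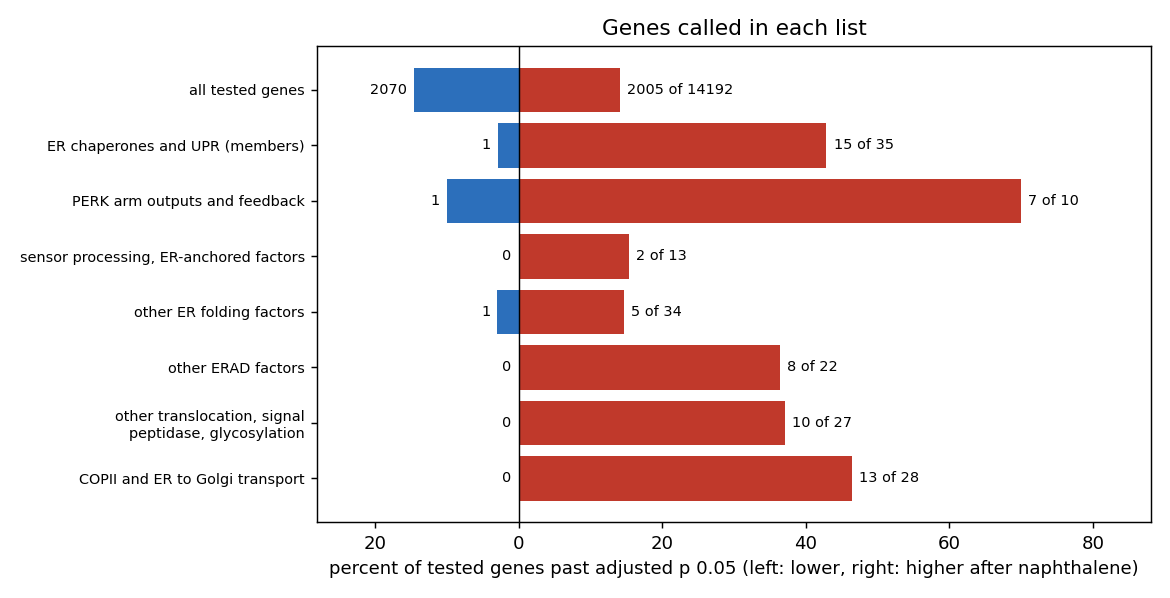
Percent of tested genes past an adjusted p of 0.05 (horizontal axis; lower to the left, higher to the right) for all tested genes, the members and 6 pathway lists (vertical axis), with the number of genes at each bar. Of the members 15 of 35 were higher and 1 was lower, against 2005 and 2070 of 14192 genes.

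Some members share exonic sequence with other genes, and although the library kit keeps the strand, no source used here gives the strand setting of the counting. In GENCODE M21, 11 members overlapped another gene's exons, and 6 of them overlapped a gene with enough counts to be tested. The largest such overlap was that of Ppib with Snx22 on the opposite strand, 25% of the exonic length of Ppib. Manf overlapped Dcaf1 and Rbm15b over 4.14% and 0.397% of its exonic length. Log2 fold changes were 0.089 for Dcaf1, 0.111 for Rbm15b and -0.418 for Snx22, and none of these was called. Atp6v1c2, which overlaps Pdia6, was called lower (-0.341, adjusted p = 0.0391). Catsper2, Mrpl49 and Mis12, which overlap Pdia3, Syvn1 and Derl2, had 0.195, 0.142 and 0.173 and were not called. The part of shared reads in the values of the members was not tested. Sec61a1 shared 8.16% of its exonic length with a non-coding antisense gene, and Hsp90b1 shared 10.3% with a pseudogene on the opposite strand. Values of the other 4, Pdia3, Pdia6, Syvn1 and Derl2, could share reads with a neighbour over 0.573% to 2.87% of their exonic length.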

How the data were processed

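The deposited table holds raw read counts by gene symbol for 8 libraries, made with a stranded total RNA kit per the labels' protocols. Per the submitters' processing notes, which give no roles, the tools were featureCounts 2.0.6, HISAT2 2.2.1, Trim Galore 0.6.7 and edgeR 4.2.1, and the build was mm39. Annotation, strand setting and handling of multimapping reads: not given in the sources used here. Columns were matched to mice by library name.

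The test was edgeR 4.0.16 under R 4.3.3 (TMM scaling, filterByExpr with minimum count 10 and minimum total 15, quasi-likelihood test, group as the only term), with p-values adjusted by Benjamini-Hochberg over all 14192 tested genes. The labels do not pair the mice, and p-values measure the spread between these samples. SE values come from the spread of log2 CPM (prior count 2) within both groups. The procedure was tested on simulated data, where 40% and 32% of genes with a true log2 change of 0.6 and -0.6 were called. A member that was not called is therefore not shown to be unchanged. Far fewer genes were changed in the simulation than were called here, so these shares need not hold for these data. The 12 pairs of libraries within groups gave chi-square values of 5.57 to 48.5 for each degree of freedom, more than sampling noise, so each counted once.

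Named genes were all members and, of each pathway list, up to 3 per direction with the smallest p. The members and lists were chosen with earlier results of these data known. Alternatives covered other scaling and filters, a replicate block, robust estimation, library sizes without mitochondrial, haemoglobin and the 20 most abundant genes, DESeq2 1.42.0, limma voom (3.58.1) and each library left out. Leaving out control 3 with naphthalene 1 was added after seeing the data. Promoters and lengths are on GRCm38, which differs from mm39, and serve only for sequence, chromosome and length.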

Additional observations from a re-analysis of the deposited data

Results flagged for a closer look

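In 9 of 108 groups of 4 values (the tested members and the named pathway genes) 1 library stood apart from the other 3, with a gap to the nearest of them above Dixon's 95% critical value as a share of the whole range. Chance alone marks about 1 group in 20. Naphthalene 4 was the low library for Dnajb11 (84.8 CPM, the other naphthalene mice 94.1 to 95.2), Ern1 (87 CPM, others 103 to 106), Xbp1 (229 CPM, others 251 to 255), Txndc11 (44.2 CPM, others 55.7 to 56.8) and Surf4 (177 CPM, others 207 to 213). Naphthalene 1 was high for Syvn1 (43.3 CPM, others 30.6 to 30.9), and naphthalene 2 was low for Erp29 (54 CPM, others 57.3 to 57.9). Control 1 was low for Atf4 (126 CPM, other controls 134 to 136) and high for Srprb (46.1 CPM, others 36.6 to 37.9).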

How the results depend on the processing

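Over the 18 alternatives 21 of the 35 tested members kept their call, and these included 11 of the 16 called members (Hspa5, Hyou1, Dnajb9, Dnajb11, P4hb, Ero1b, Creld2, Manf, Xbp1, Herpud1 and Sec61a1). The other 5 called members lost the call in at least 1 alternative, and 9 members gained one. Of these, Ppib, Syvn1, Derl2 and Selenok gained it only with control 3 and naphthalene 1 both left out. Members called higher numbered 12 with upper quartile scaling or no filter, 14 with limma voom, 18 with DESeq2 and 10 to 16 with 1 library left out. Without control 3 and naphthalene 1 together, an alternative chosen after seeing the data, 21 were higher and 2 lower, the second being Syvn1 (log2 fold change -0.34), and the cause was not tested. The median of all genes moved by less than 0.1 in every alternative. The labels do not pair the mice by replicate number. Deviations from group means of same-numbered libraries correlated at 0.29, 0.03, 0.18 and -0.09, and not every library correlated best with its own number. With 4 libraries in each group these correlations cannot decide whether mice were paired. With the replicate block 15 members were higher and 1 lower, and the genes past the threshold in naphthalene against control numbered 4363 in place of 4075. Under the block Derl1 lost its call and Sec61b gained one (adjusted p = 0.0631 and 0.0329). Derl3 had the lowest CPM of the tested members, and a difference within its spread was not detectable at this depth.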

Other observations

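The exact ERSE is rare enough that its carriers outside the members can be listed. Of 9 tested genes outside the members with the ERSE, 1 was higher and 1 lower. The higher 1 was Alg12, a mannosyltransferase of N-glycan assembly (13.1 to 16.8 CPM, log2 fold change 0.36, adjusted p = 0.0397), whose start lies head to head with that of Creld2, so that the match in the 2 promoters is the same. The lower 1 was Pan2, a deadenylase subunit (log2 fold change -0.38, adjusted p = 0.0233). Of 118 genes of the pathway lists with a promoter entry 8 carried the UPRE, and 4 of these 8 were higher (Vcp, Txndc11, Sec24d and Ube2j1) and 0 lower, with Dnajc25, Sec23a, Kdelr3 and Txndc5 not called. Among the 101 tested genes of these lists with an entry and no UPRE, 32 were higher (31.7%) and 2 lower. Over all tested genes the UPRE carriers were higher in 28 of 109 (25.7%) and lower in 15. These genes were picked by their promoter letters after the counts had been tested, and the values are a description.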
